A study of Mus musculus with 60 samples.

Results

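The synaptic vesicle and release machinery was followed here as 48 genes, chosen by symbol: every listed symbol was found among the 24508 genes of the deposited expression table, and all 48 were among the 14446 genes tested. They comprise 14 synaptotagmins, 2 Doc2 proteins, 11 SNAREs and their regulators, 11 vesicle proteins, 2 vesicular glutamate transporters and 8 active zone proteins. Expression was measured by stranded messenger RNA sequencing of whole hippocampus from wild-type (WT) mice and from R6/1 mice, with 9 independent libraries per genotype. R6/1 is a transgenic model of Huntington's disease whose transgene holds the opening exon of human huntingtin with an expanded CAG repeat. All mice were 30 weeks old and of a mixed CBA and C57BL/6 strain, and no treatment separated the groups. In addition, 1 list of lamin B1 domains per genotype was used, made from chromatin of 5 pooled mice per replicate.

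At a presynaptic terminal, synaptic vesicles are filled with transmitter by transporters, docked at the active zone by scaffold proteins and primed by Unc13 proteins. Fusion is driven by SNARE proteins on the vesicle (synaptobrevins, the Vamp genes) and on the plasma membrane (Snap25 and syntaxin 1), held in check by complexins and triggered when calcium binds a synaptotagmin. In hippocampus most of these terminals belong to glutamatergic granule and pyramidal cells, and many of the genes have paralogues that differ in calcium affinity, kinetics or cell type.

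Levels are given in RPKM, that is reads per kilobase of gene scaled for sequencing depth by the authors. They are per length, but the counter, annotation and use of strand are not stated and some genes may have lost reads (Atp6v0c was at 0.0949 RPKM in WT, whereas Atp6v1a, of the same proton pump, was at 189.8), so the order of levels between genes is that of the deposited values only. Differences are log2 fold changes of R6/1 over WT on log2(RPKM + 0.5), a scale on which low genes show too small a change. Each was tested with limma and Benjamini-Hochberg adjustment over all 14446 genes, and a gene is said to have risen or fallen when its adjusted p was under 0.05. Reads on genes numbered 12299434 to 16736544 per library, so sampling error was small for abundant members: Snap25 had at least 22800 reads in every library, whereas Cplx3 had as few as 23. The tissue is bulk, so fewer cells of a type and less RNA per cell cannot be told apart.

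Of the 48 genes, 25 fell (52.1%), 5 rose (10.4%) and 18 did not pass the threshold. Of all genes tested, 23.5% fell and 24.8% rose. The median log2 fold change was -0.16 over the 48 genes and 0.00 over all genes tested. For 13 of the genes that fell, every R6/1 library lay below every WT library, as for 6.38% of all genes tested, and for 3 of the genes that rose, every R6/1 library lay above every WT library, as for 5.5% of all genes tested. Most changes were modest: 17 of the 30 calls were smaller than 0.5 on the log2 scale in either direction, and 1 gene, Cplx3, reached -1.0, with values from -1.15 to -0.88 when single libraries were left out. By the authors' deposited table, 25 of the 48 genes were lower and 5 higher at an adjusted p under 0.05, against 20.4% and 20% of all genes with an adjusted p there. Together the 48 genes took 2.05% ± 0.0758 of the reads on genes in WT, against 1.79% ± 0.0332 in R6/1 (n = 9 each, SD). Genes at all levels of expression were involved: 8 of 14 with a mean of at least 100 RPKM fell and 3 rose, 11 of 22 with a mean of 10 to 100 RPKM fell and 2 rose, and 6 of 12 with a lower mean fell and 0 rose.

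**Figure D1:**
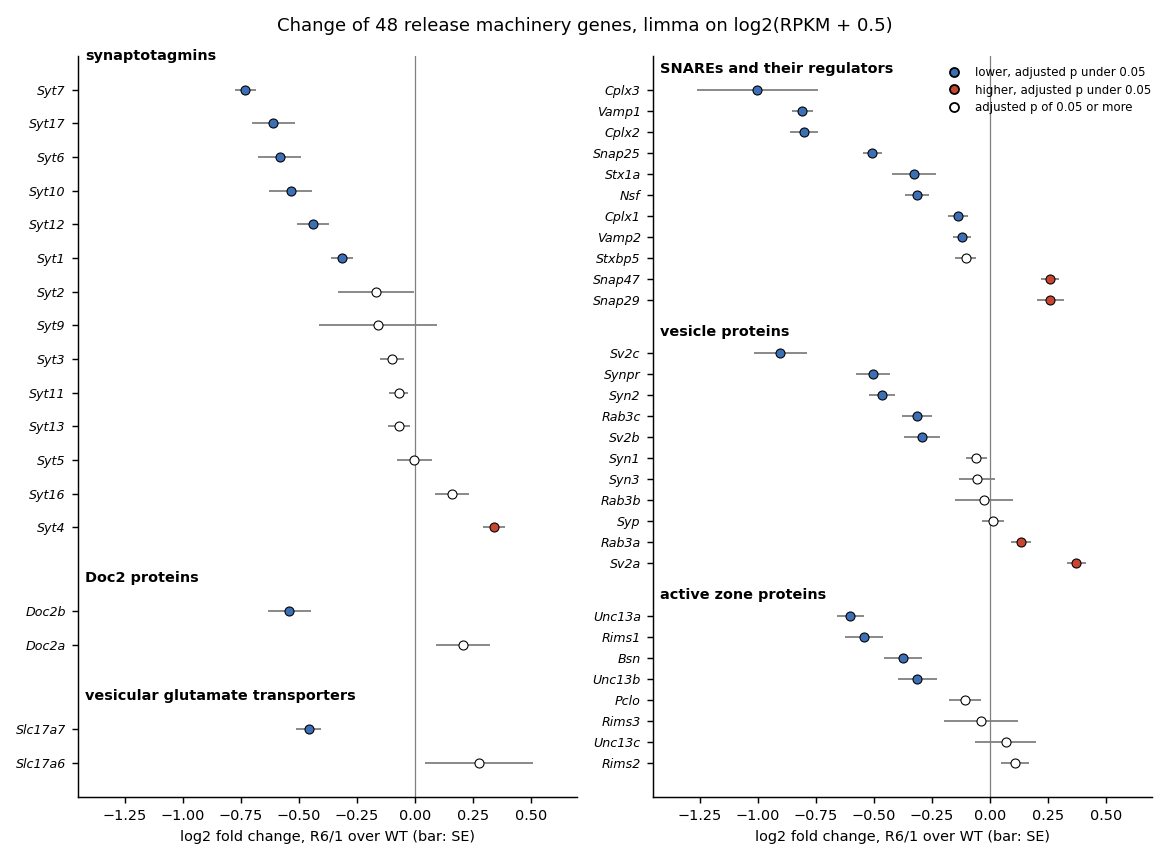
Log2 fold change of R6/1 over WT (x axis) for each of the 48 genes, grouped by role, with bars for the standard error; filled points passed the limma threshold, blue lower and red higher. The 5 genes that rose, Sv2a, Syt4, Snap29, Snap47 and Rab3a, lie to the right of 0 at 0.13 to 0.37, and Cplx3, Sv2c, Vamp1, Cplx2 and Syt7 lie farthest to the left.

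The WT libraries 2, 5 and 6 are named before the results, because single members followed them. WT replicate 2 was the highest WT library for 16 of the 48 genes, among them Cplx3, Rims3, Rab3b, Doc2a and Unc13c. WT replicate 6 stood highest in genes marking thalamus and habenula, regions that border the hippocampus: the summed level of the 9 listed markers was 24.0 to 102.6 RPKM in WT and 16.5 to 29.8 RPKM in R6/1, with Prkcd at 38.9 and Tnnt1 at 10.8 RPKM in that library. WT replicate 5 was next for Tcf7l2, at 4.87 RPKM, and was highest for Syt9. Leaving out each library in turn, 25 or 26 of the 48 genes fell, and 5 rose with 2 exceptions. Without WT replicate 2, 8 rose because Syt16, Rims2 and Doc2a also passed. Without R6/1 replicate 5, 6 rose because Syt16 also passed. With WT replicates 2, 5 and 6 left out together, an alternative added after the data were seen, 26 fell and 8 rose, but the 8 include Slc17a6 and Syt9, whose levels helped to pick those libraries.

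The hippocampal label was checked on marker lists. All 8 listed dentate granule markers were measured, at a summed level of 82.4 to 126.3 RPKM in WT and 48.6 to 61.2 RPKM in R6/1, and all 8 fell. Of 12 general neuronal markers 7 fell and 2 rose, with a median log2 fold change of -0.21; 5 of 9 CA3 markers, 6 of the 6 CA1 markers reported and 8 of 10 inhibitory neuron markers fell. Of the 8 astrocyte markers 7 fell, of the 8 oligodendrocyte markers 6, of the 9 microglia markers 3, of the 7 endothelial markers 2 and of the 8 tested thalamus and habenula markers 4. None of the 8 choroid plexus markers was called. Of all genes tested 23.5% fell, and the microglia (33.3%) and endothelial (28.6%) counts lay near that share. The part of these marker differences in the results below was not tested.

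Promoter sequence was read for the members where RefSeq's table (GRCm38.p6) holds an entry, which gave 36 genes with 47 windows of 300 bases, from 250 before to 50 after the annotated start. The windows of 5 genes are shown, chosen after their letters were seen, because they stand for genes that fell (Vamp1, Unc13a), rose (Sv2a, Snap47) or did not pass (Syn1). Each line gives the 250 bases before the start, 5′ to 3′ on the gene's strand. Capitals mark matches, on either strand, to the GC box GGGCGG, the CRE TGACGTCA or its 5-base part TGACG, the Egr1 motif GCGTGGGCG and the left part of the RE1 element, TTCAGCACC. The motifs can overlap, as in Unc13a.
Vamp1 (chr6:125215331-125215580, plus strand): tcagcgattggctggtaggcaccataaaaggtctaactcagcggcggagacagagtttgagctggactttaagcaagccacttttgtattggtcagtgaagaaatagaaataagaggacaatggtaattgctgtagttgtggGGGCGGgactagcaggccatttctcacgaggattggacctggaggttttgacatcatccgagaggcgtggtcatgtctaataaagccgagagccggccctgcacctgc
Unc13a (chr8:71671758-71672007, minus strand): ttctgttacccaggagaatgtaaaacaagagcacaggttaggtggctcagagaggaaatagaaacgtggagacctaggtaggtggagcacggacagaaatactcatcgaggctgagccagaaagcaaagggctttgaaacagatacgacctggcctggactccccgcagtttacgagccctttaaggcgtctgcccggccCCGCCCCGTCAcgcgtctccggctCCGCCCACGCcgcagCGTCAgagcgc
Sv2a (chr3:96180977-96181226, plus strand): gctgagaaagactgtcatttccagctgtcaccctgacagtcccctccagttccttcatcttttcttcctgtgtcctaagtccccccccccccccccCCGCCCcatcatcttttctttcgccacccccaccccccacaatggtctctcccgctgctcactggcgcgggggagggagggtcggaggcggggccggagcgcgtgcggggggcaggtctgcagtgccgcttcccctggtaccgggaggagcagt
Snap47 (chr11:59450035-59450284, minus strand): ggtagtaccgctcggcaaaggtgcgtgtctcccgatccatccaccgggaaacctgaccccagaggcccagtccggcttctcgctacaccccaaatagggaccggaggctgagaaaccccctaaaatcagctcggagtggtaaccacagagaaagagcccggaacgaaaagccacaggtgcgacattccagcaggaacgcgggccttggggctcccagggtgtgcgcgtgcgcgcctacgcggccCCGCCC
Syn1 (chrX:20920919-20921168, minus strand): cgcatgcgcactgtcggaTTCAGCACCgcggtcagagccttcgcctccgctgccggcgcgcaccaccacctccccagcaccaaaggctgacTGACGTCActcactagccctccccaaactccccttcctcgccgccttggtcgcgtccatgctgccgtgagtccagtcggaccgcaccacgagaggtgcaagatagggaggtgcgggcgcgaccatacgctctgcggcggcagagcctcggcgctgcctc
A GC box was found in 32 of the 47 windows (68.1%) and in 35.7% of all 32851 windows of the table. By gene, 29 of the 36 with an entry held it. These were 15 of the 19 that fell, 3 of the 4 that rose, and otherwise genes that did not pass the threshold. The TGACG letters were in 19.1% of the windows and in 20.8% of all windows. The whole CRE was matched in 1 window, that of Syn1 (2.13%, against 1.79% of all), the Egr1 motif in 1, that of Unc13a (2.13%, against 0.612%), and the RE1 part in 2, those of Syn1 and Unc13a (4.26%, against 0.371%), the latter outside the stretch shown. These matches are descriptions of letters and not sites of binding.

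The synaptotagmins are calcium sensors and related C2-domain proteins of the vesicle and plasma membrane. Of the 14, 6 fell (42.9%, against 23.5% of all genes tested) and 1 rose (7.14%, against 24.8%). Syt1, the fast sensor for synchronous release and the most abundant of them, was at 346 to 440.1 (median 403) RPKM in WT and 297 to 339.6 (median 323) in R6/1 (log2 fold change -0.31, SE 0.05, limma adjusted p 2.4e-05). No R6/1 library reached the lowest WT library. Syt7, a slow high-affinity sensor linked to asynchronous release and facilitation, was at 54.4 to 71.2 (median 61.5) RPKM in WT and 34.5 to 39.6 (median 37.9) in R6/1 (log2 fold change -0.73, SE 0.05, limma adjusted p 2.06e-10). Its groups were far apart. Syt17 was at 17.0 to 32.6 (median 23.6) RPKM in WT and 13.2 to 16.8 (median 15.6) in R6/1 (log2 fold change -0.61, SE 0.09, limma adjusted p 1.95e-05), with the highest R6/1 library just below the lowest WT library. Syt10, a sensor for growth factor secretion in some neurons, was at 3.26 to 4.92 (median 3.57) RPKM in WT and 1.62 to 2.95 (median 2.42) in R6/1 (log2 fold change -0.54, SE 0.09, limma adjusted p 6.82e-05). Syt6 was at 1.59 to 3.16 (median 2.00) RPKM in WT and 1.05 to 1.49 (median 1.21) in R6/1 (log2 fold change -0.58, SE 0.09, limma adjusted p 3.76e-05). Both were low genes whose groups did not overlap. Syt12 was at 7.64 to 9.65 (median 8.86) RPKM in WT and 5.27 to 8.04 (median 6.08) in R6/1 (log2 fold change -0.44, SE 0.07, limma adjusted p 2.44e-05), and its groups overlapped. Syt4, which lacks the calcium binding of Syt1 and is induced by activity, went the other way, from 50.7 to 66.0 (median 58.6) RPKM in WT to 67.3 to 82.0 (median 73.7) in R6/1 (log2 fold change 0.34, SE 0.05, limma adjusted p 8.91e-06), and every R6/1 library exceeded every WT library.

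The other 7 synaptotagmins did not pass the threshold. Syt11, second in abundance at 192 ± 11.2 RPKM in WT and 183 ± 10.3 in R6/1, and Syt13, at 70.2 ± 5.91 and 66.9 ± 4.29 RPKM, had values of -0.07 each, which turned to 0.0046 and 0.0054 after scaling by own totals of reads. Syt5 was at 67.4 ± 8.59 RPKM in WT and 67.3 ± 8.64 in R6/1 (n = 9 each, SD), a log2 fold change of 0.00 in size whose sign changed with the setting. Syt3 (-0.10), Syt2 (-0.17) and Syt16 (0.16) had adjusted p of 0.13, 0.421 and 0.0785, and Syt16 passed without WT replicate 2 (0.21, limma adjusted p 0.00811). Syt16 also passed in other settings, such as quantile normalization (limma adjusted p 0.049) and own totals of reads (0.0142). It stayed uncalled in 24 of 30 alternatives. Syt9, an alternative fast sensor, was at 1.16 to 8.84 (median 2.15) RPKM in WT and 1.94 to 3.27 (median 2.44) in R6/1 (log2 fold change -0.16, SE 0.25, limma adjusted p 0.637). WT replicate 5 at 8.84 RPKM, then WT replicate 6 at 5.37 and WT replicate 2 at 4.73, stood above every R6/1 library, and the other 6 WT libraries lay between 1.16 and 2.86 RPKM. Without WT replicate 5 the value of Syt9 was 0.03 (limma adjusted p 0.922).

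Of the Doc2 proteins, calcium-binding proteins linked to spontaneous and asynchronous release, Doc2b was the more abundant, at 16.7 to 32.2 (median 24.0) RPKM in WT and 13.2 to 19.4 (median 17.4) in R6/1 (log2 fold change -0.54, SE 0.09, limma adjusted p 8.09e-05). The groups overlapped. Doc2a was at 6.64 ± 1.83 RPKM in WT and 7.52 ± 0.357 in R6/1 (n = 9 each, SD; log2 fold change 0.21, limma adjusted p 0.145), and passed without WT replicate 2 (0.28, limma adjusted p 0.0284). Its R6/1 libraries, at 6.90 to 8.06 RPKM, lay within the WT range of 4.18 to 9.87 RPKM.

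SNAREs and their regulators fell in 8 of 11 cases (72.7%, against 23.5% of all genes tested) and rose in 2 (18.2%, against 24.8%). Snap25, the plasma membrane SNARE of neuronal exocytosis and the most abundant of the 48 genes, was at 946 to 1136 (median 1069) RPKM in WT and 688 to 792 (median 748) in R6/1 (log2 fold change -0.51, SE 0.04, limma adjusted p 8.48e-09). The lowest WT library stood well above the highest R6/1 library. Vamp1, a synaptobrevin prominent in brainstem and spinal cord, was at 38.5 to 48.7 (median 41.7) RPKM in WT and 23.0 to 26.2 (median 23.8) in R6/1 (log2 fold change -0.81, SE 0.05, limma adjusted p 2.98e-11). Its mean in R6/1 was 0.565 of that in WT, with no overlap. Vamp2, the main forebrain synaptobrevin, was at 600.1 ± 34.8 RPKM in WT and 552 ± 26.5 in R6/1 (n = 9 each, SD; log2 fold change -0.12, limma adjusted p 0.0168), but was 0.04 under quantile normalization and had an adjusted p of 0.251 after scaling by own totals. Cplx2, a complexin that clamps and promotes SNARE fusion, was at 281 to 375 (median 335) RPKM in WT and 160.1 to 209.6 (median 180.0) in R6/1 (log2 fold change -0.80, SE 0.06, limma adjusted p 2.69e-09). The groups did not overlap. Cplx1 was at 272 ± 19.4 RPKM in WT and 248 ± 13.9 in R6/1 (n = 9 each, SD; -0.14, limma adjusted p 0.0146), a call lost with quantile normalization (adjusted p 0.0926) and with each library's own total (0.164). Nsf, the ATPase that takes spent SNARE complexes apart, was at 311 to 402 (median 328) RPKM in WT and 254 to 302 (median 279) in R6/1 (log2 fold change -0.31, SE 0.05, limma adjusted p 3.94e-05).

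Cplx3, a complexin of ribbon synapses and some cortical neurons, was at 0.825 to 5.45 (median 2.19) RPKM in WT and 0.533 to 1.99 (median 0.819) in R6/1 (log2 fold change -1.0, SE 0.26, limma adjusted p 0.00341). Its WT libraries were widely spread, with replicates 2, 8 and 9 highest at 5.45, 4.52 and 3.68 RPKM and replicate 1 at 0.825, and 23 reads were its lowest count in a library. Stx1a, the syntaxin that pairs with Snap25, fell by 0.33 (limma adjusted p 0.0076) from 40.9 ± 8.42 to 32.1 ± 3.03 RPKM (SD, n = 9 each), and its groups overlapped. Stxbp5, tomosyn, an inhibitor of SNARE pairing, gave -0.10 and did not pass (limma adjusted p 0.0673). Stxbp5 passed as lower without WT replicate 5 (-0.13, limma adjusted p 0.023) and without R6/1 replicate 4 (-0.13, adjusted p 0.0256). It stayed uncalled in 26 of 30 alternatives. The 2 that rose were the broadly expressed relatives of Snap25. Snap47 was at 142 to 176 (median 159.6) RPKM in WT and 179 to 212 (median 190.5) in R6/1 (log2 fold change 0.26, SE 0.04, limma adjusted p 1.76e-05), without overlap. Snap29 was at 9.49 ± 1.10 RPKM in WT and 11.5 ± 0.906 in R6/1 (n = 9 each, SD; log2 fold change 0.26, limma adjusted p 0.00115), and its groups overlapped through WT replicate 1. Vamp1, Snap47 and Snap29 are among 9 of the 48 genes overlapped by a protein-coding gene on the opposite strand; the kit marks strand, and whether the counting used it is not stated. The others are Syt3, Doc2a, Syn1, Syn2, Syn3 and Rab3a.

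**Figure D2:**
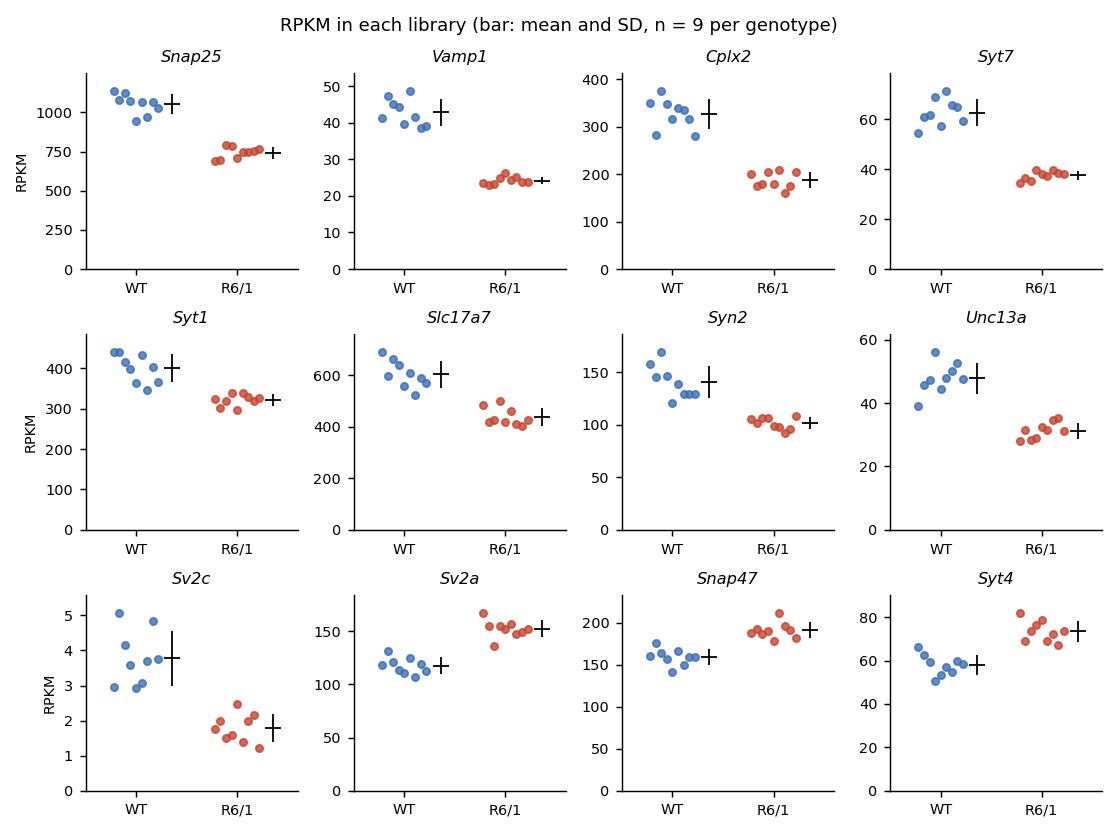
RPKM (y axis, from 0) in each of the 9 WT (blue) and 9 R6/1 (red) libraries for 12 of the genes, with mean and SD as a bar. In all 12 panels the genotypes do not overlap: 9 genes lie lower in R6/1, and Sv2a, Snap47 and Syt4 lie higher.

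Vesicle proteins fell in 5 of 11 cases (45.5%, against 23.5% of all genes tested) and rose in 2 (18.2%, against 24.8%). Among the synapsins, phosphoproteins that tether vesicles in the reserve pool, Syn2 was at 121 to 169.6 (median 139) RPKM in WT and 92.2 to 108 (median 102) in R6/1 (log2 fold change -0.46, SE 0.06, limma adjusted p 1.07e-06). The groups did not overlap. Syn1, the most abundant synapsin at 209 ± 16.8 RPKM in WT and 200.3 ± 10.9 in R6/1, and Syn3, at 2.10 ± 0.322 and 1.99 ± 0.217 RPKM (SD, n = 9 each), gave -0.06 each (limma adjusted p 0.317 and 0.576), and turned to 0.015 and 0.0020 with each library's own total. The SV2 glycoproteins, vesicle proteins of which Sv2a binds levetiracetam, diverged. Sv2a was at 107 to 132 (median 118) RPKM in WT and 136 to 167 (median 152) in R6/1 (log2 fold change 0.37, SE 0.04, limma adjusted p 4.28e-07), the largest rise of the 48 genes. Sv2c was at 2.92 to 5.08 (median 3.69) RPKM in WT and 1.23 to 2.46 (median 1.77) in R6/1 (log2 fold change -0.90, SE 0.11, limma adjusted p 2e-06), and its mean in R6/1 was 0.473 of that in WT. Neither gene's groups overlapped. Sv2b fell from 106 ± 17.9 to 86.2 ± 6.63 RPKM (SD, n = 9 each; -0.29, limma adjusted p 0.00367), with overlap.

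Syp, synaptophysin, the abundant vesicle membrane protein often used as a count of terminals, was at 481 to 637 (median 556) RPKM in WT and 523 to 614 (median 558) in R6/1 (log2 fold change 0.01, SE 0.05, limma adjusted p 0.836). The R6/1 libraries lay within the WT range, and quantile normalization gave 0.22 (limma adjusted p 5.38e-06). Synpr, synaptoporin, its relative enriched in mossy fiber terminals of granule cells, was at 46.3 to 63.9 (median 57.6) RPKM in WT and 32.6 to 47.6 (median 38.1) in R6/1 (log2 fold change -0.50, SE 0.07, limma adjusted p 1.06e-05). Among the Rab3 proteins, small GTPases of vesicle docking, Rab3a rose by 0.13 (limma adjusted p 0.0145) from 324 ± 23.3 to 355 ± 17.0 RPKM, Rab3c fell by 0.31 (adjusted p 0.000507) from 65.6 ± 8.22 to 52.5 ± 4.11 RPKM (SD, n = 9 each), and Rab3b gave -0.02 (adjusted p 0.893), a sign that changed with the setting. In both called genes the genotypes overlapped.

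Slc17a7, VGLUT1, which loads glutamate into vesicles of most hippocampal terminals, was at 524 to 691 (median 597) RPKM in WT and 403 to 501 (median 425) in R6/1 (log2 fold change -0.46, SE 0.06, limma adjusted p 1.17e-06), with no overlap. Slc17a6, VGLUT2, prominent in thalamic and other subcortical projections, was at 2.99 to 18.8 (median 7.88) RPKM in WT and 7.42 to 11.1 (median 9.46) in R6/1 (log2 fold change 0.28, SE 0.23, limma adjusted p 0.34). Its WT libraries ran from WT replicate 1, at 2.99 RPKM, to WT replicate 6, at 18.8 RPKM, the library highest in thalamic markers, and enclosed all R6/1 libraries. Leaving out any 1 library gave 0.13 to 0.44, none of them called. With WT replicates 2, 5 and 6 left out together Slc17a6 was 0.68 (limma adjusted p 0.00249) and Syt9 0.34 (adjusted p 0.0465). Those 3 libraries are the highest WT libraries for both genes and were chosen with these levels in view, so these 2 values follow from the choice and are not read as changes.

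**Figure D3:**
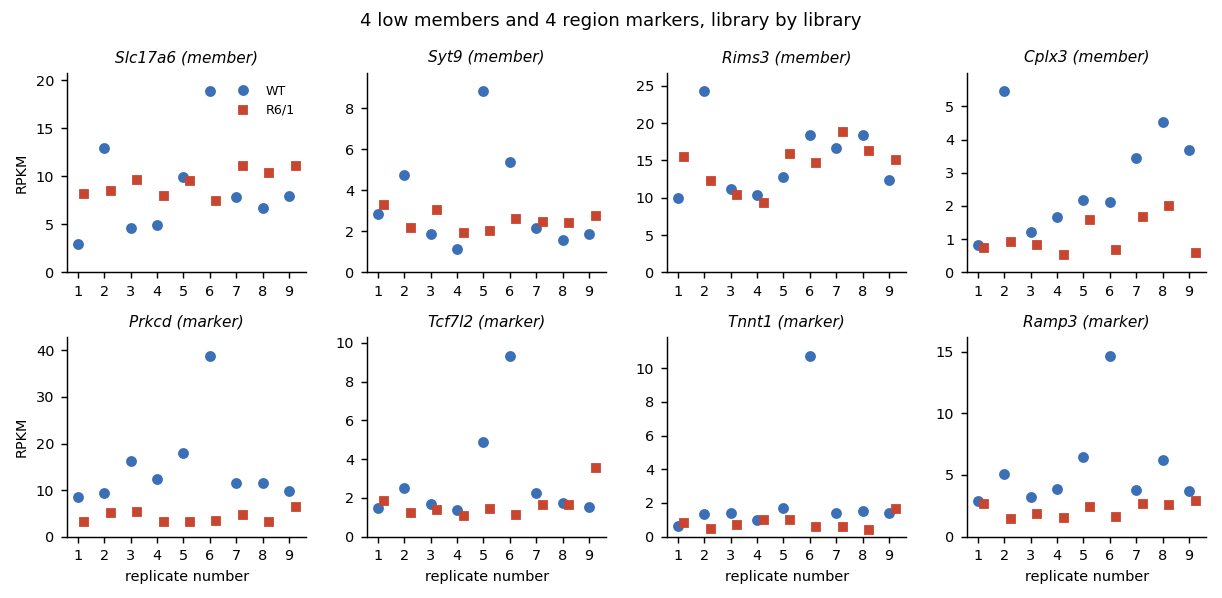
RPKM (y axis, from 0) by replicate number (x axis; numbers do not pair the genotypes) in WT (blue circles) and R6/1 (red squares), for 4 low members in the upper row and 4 region markers in the lower row. WT replicate 6 is highest for Slc17a6 and the 4 markers Prkcd, Tcf7l2, Tnnt1 and Ramp3, WT replicate 5 for Syt9, and WT replicate 2 for Rims3 and Cplx3.

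Active zone proteins fell in 4 of 8 cases (50%, against 23.5% of all genes tested) and rose in 0 (against 24.8%). Unc13a, Munc13-1, which opens syntaxin for SNARE assembly and is the most abundant of the 8, was at 39.0 to 56.1 (median 47.7) RPKM in WT and 28.2 to 35.3 (median 31.4) in R6/1 (log2 fold change -0.60, SE 0.06, limma adjusted p 8.35e-08). Every R6/1 library was below the lowest WT library. Rims1, a scaffold that recruits calcium channels and Unc13 proteins to release sites, was at 26.1 to 40.0 (median 32.9) RPKM in WT and 18.7 to 27.8 (median 22.5) in R6/1 (log2 fold change -0.54, SE 0.08, limma adjusted p 1.85e-05), with overlap. Unc13b fell by 0.31 (limma adjusted p 0.00467) and Bsn, bassoon, a giant scaffold, by 0.37 (adjusted p 0.000944). Bsn's relative Pclo gave -0.11 (adjusted p 0.214). Rims2 (0.11), Rims3 (-0.04) and Unc13c (0.07) did not pass, with limma adjusted p of 0.134, 0.86 and 0.702. The sign of Rims3 changed in 5 of the fits that left out a single library, WT replicate 2 (24.3 RPKM) among those left out.

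The balance within 16 pairs of paralogues was compared in each library as the log2 ratio of RPKM + 0.5, from which the scaling of a library cancels apart from the pseudocount. Genotypes were exchanged in all 48620 possible divisions of the libraries (exact permutation test, two-sided), with adjustment over the 16 pairs; its smallest possible p is 4.11e-05. The ratio differed for 15 of the 16 pairs, and for 8 of them the genotypes did not overlap. The pairs were chosen with earlier results known, no share was computed for other pairs of genes, and 48.3% of all genes tested were called singly, so the count is not read as particular to these pairs. In RPKM, Cplx1 was above Cplx2 in 0 of 9 WT libraries and in 9 of 9 R6/1 libraries. The ratio was 0.752 to 0.942 in WT and 1.17 to 1.50 in R6/1. In reads, Cplx2 was above Cplx1 in every library, at 10849 to 27559 against 6781 to 9681. The order in RPKM thus depends on the gene lengths used, which are not known here. The shift of 0.66 in the log2 ratio hardly does. Snap25 exceeded Snap47 6.13 to 7.07 times in WT and 3.53 to 4.23 times in R6/1, and Snap47 accounted for 13.0% ± 0.485 of the summed level of Snap25, Snap29 and Snap47 in WT, against 20.2% ± 1.08 in R6/1 (n = 9 each, SD).

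The log2 ratio of Sv2a to Sv2c rose by 1.28 and that of Sv2a to Sv2b by 0.66, and the summed level of the 3 SV2 genes overlapped between genotypes, at 195.2 to 267 RPKM in WT and 223 to 255 in R6/1. Syn1 to Syn2 rose by 0.41, Syp to Synpr by 0.52 and Syt4 to Syt11 by 0.41, and Vamp1 to Vamp2 fell by 0.69. These 8 pairs had an exact permutation p of 4.11e-05 (8.23e-05 after adjustment). Slc17a7 to Slc17a6 fell by 0.74 (exact permutation p 0.0215, adjusted 0.0229), with overlap. Leaving out single libraries gave -0.89 to -0.56. Slc17a6 by itself was not called and ran from 2.99 to 18.8 RPKM among WT libraries, a spread that enters this ratio. The pair that did not differ by this test was Syt1 and Syt2 (-0.15, exact permutation p 0.487). Of the other 6 pairs, Syt1 to Syt7, Rab3a to Rab3c and Doc2a to Doc2b rose by 0.42, 0.45 and 0.75, and Unc13a to Unc13c, Rims1 to Rims3 and Bsn to Pclo fell by 0.67, 0.50 and 0.27, with adjusted p between 0.000132 and 0.00202 (exact permutation test).

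**Figure D4:**
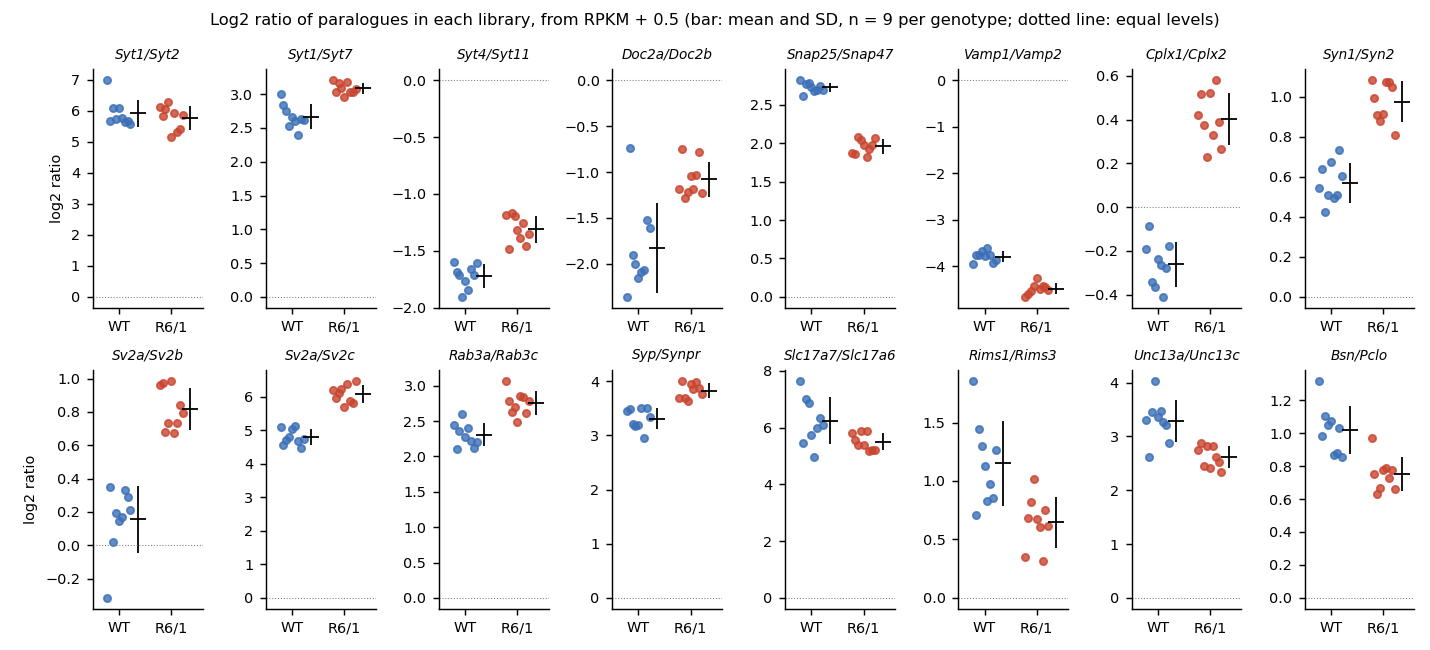
Log2 ratio of paralogue levels (y axis, from RPKM + 0.5) in each WT (blue) and R6/1 (red) library for the 16 pairs, with mean and SD as a bar and a dotted line at equal levels. Cplx1/Cplx2 lies below the line in all 9 WT libraries and above it in all 9 R6/1 libraries. The place of the line depends on the gene lengths behind RPKM, and Cplx2 had more reads in every library.

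Other genes of the same pathways were taken from lists. Their counts stand beside 23.5% that fell and 24.8% that rose among all genes tested. Of 41 tested further release and active zone genes 22 fell and 6 rose, with a median of -0.15, beside -0.16 for the 48 genes. Those with the largest changes were Stxbp6, amisyn, a SNARE-binding inhibitor (31.4 ± 5.15 to 13.0 ± 0.948 RPKM, -1.22), Rph3a, rabphilin, a Rab3 effector (93.0 ± 10.0 to 48.3 ± 5.20 RPKM, -0.94), and Lin7b, a scaffold (32.7 ± 3.84 to 18.6 ± 1.48 RPKM, -0.79; SD, n = 9 each). Of 24 tested further vesicle membrane genes 3 fell (12.5%) and 7 rose (29.2%, near the share of all genes), with a median of 0.02. Among them Slc30a3, the zinc transporter of mossy fiber and other glutamatergic vesicles, fell by 0.86 and Slc17a8, VGLUT3, by 0.57, and Atp6ap1, a subunit of the vesicular proton pump, rose by 0.37. Of 31 vesicle endocytosis genes 9 fell (29%, near the share of all genes) and 5 rose (16.1%), with a median of 0.00 in size. Hspa8, the clathrin-uncoating chaperone, rose by 0.57, Ston1 rose by 0.33 and Ston2, its relative, fell by 0.34. Of 22 postsynaptic scaffold genes 19 fell and 1 rose, with a median of -0.44, led by Homer3 (-0.98), Cnksr2 (-0.89) and Shank1 (-0.72). All 12 named genes had limma adjusted p under the threshold, and the rises of the vesicle membrane and endocytosis lists depended on the scaling: 12 and 11 genes rose under quantile normalization, and 13 and 12 with each library's own total. The falls moved too: with own totals 16 further release and active zone genes and 16 postsynaptic genes fell.

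**Figure D5:**
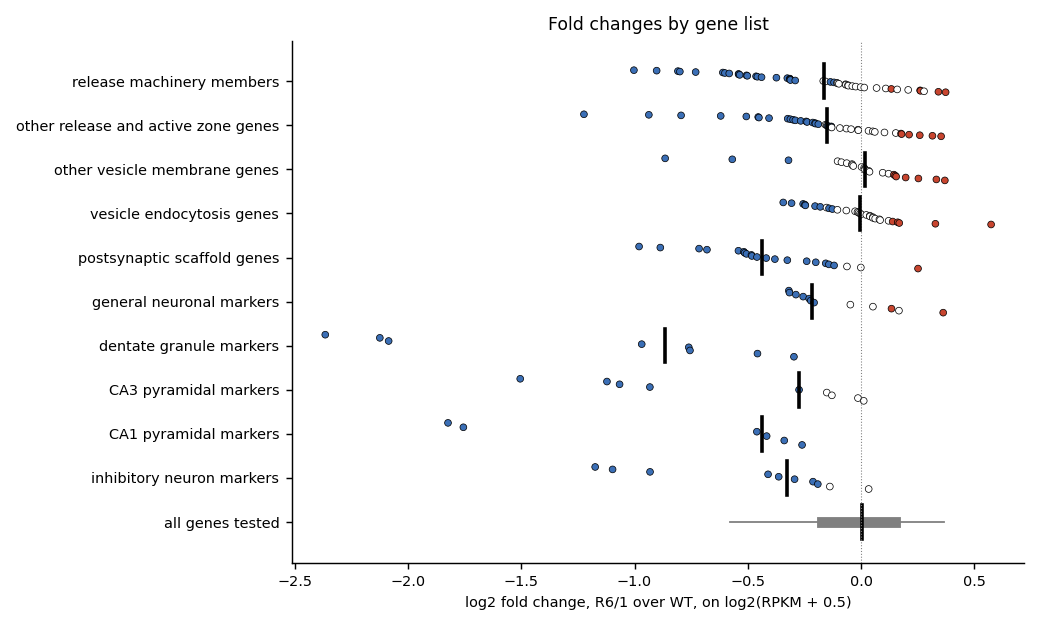
Log2 fold change of R6/1 over WT (x axis) of each gene in the 48-gene list, 4 pathway lists and 5 marker lists, with medians as black ticks; blue and red points passed the limma threshold lower and higher. The grey bar spans the middle of all genes tested (quartiles thick, 5th to 95th percentile thin) around a median of 0.00, and the medians of the postsynaptic list (-0.44) and the dentate granule list (-0.86) lie farther left than that of the 48 genes (-0.16).

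The 48 genes were also placed on the lamin B1 domains, long stretches of chromosome at the nuclear lamina, with gene starts on build NCBIM37. The start of 4 genes lay in a domain of both genotypes (8.33%, against 7.68% of the 12951 tested genes matched by symbol): Syt4, Syt9, Slc17a6 and Pclo. The start of 2 lay in a domain of WT only (4.17%, against 5.4%), and of 0 in a domain of R6/1 only (against 0.355%). The 2 were Syt1, in a WT domain at chr10:96385001-114626000, and Syn1, in a WT domain at chrX:13431001-24198000. Their starts lay 1.22 Mb and 0.555 Mb from the nearest R6/1 domain. Syt1 fell and Syn1 did not pass the threshold. Counted by any base of the gene body, 3 genes lay in a domain of WT only (6.25%, against 5.37%). Rims1, which fell, was the one added. With 1 list per genotype these placements have no replicate check, and no test was made.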

How the data were processed

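RNA sequencing of hippocampus from 9 WT and 9 R6/1 mice was analysed, with libraries grouped by labelled genotype, and 0 columns of values per sample stayed out of use. The authors deposited RPKM per gene symbol. The submitters' processing notes name TopHat, DESeq2 and Bowtie and the build mm9, with no versions; the counter, the gene annotation and the use of strand in counting are not given in the sources used here. The comparison table that the authors deposited holds a mean normalized signal, log2 fold changes with errors, a test score and p-values, under DESeq2's column names; it was used as an alternative, and its signs were checked to be R6/1 over WT. Values scaled to whole multiples of 1 step per library gave back reads (within 0.05 of a read), so the depth scaling is by size factors, and totals on genes were 12299434 to 16457022 in WT and 13260311 to 16736544 in R6/1. The deposited lamin B1 domain lists, made with EDD per the file names, hold 1 score per domain, which was not used; domain bounds fit build NCBIM37, whose GENCODE annotation placed gene starts.

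Each gene was tested with limma 3.58.1 (lmFit, eBayes with trend) in R 4.3.3 on log2(RPKM + 0.5), for genes whose mean reached 0.5 RPKM, with Benjamini-Hochberg adjusted p under 0.05 as the threshold. No count test was run on RPKM. The labels call the replicates independent. On simulated data (14374 genes, this comparison) the test recovered 36% of changes of 0.3, 90% of 0.6, 98% of 1 and 100% of 2 on the log2 scale, and unchanged genes made up 1.24% of its calls. Few genes were changed in that simulation (50 each at 0.3, 0.6 and 1), with a spread set beforehand. In the real data 48.3% of the genes tested were called, so these rates need not hold there. The members, the gene lists and the pairs were chosen with earlier results of these data known. Values of every library are summarised for members that passed and either did not overlap or changed by at least 0.4, and for the most abundant of each role; up to 3 called genes with the largest change are named per pathway list. Members singled out for libraries that stand apart (Syt9, Slc17a6) were chosen after their values were seen. Cplx4, Slc18a3 and Atp6v0c of the pathway lists had means under 0.5 RPKM and were not tested. Members without a promoter entry are Rims2, Vamp2, Syt7, Syn3, Doc2a, Syt5, Syt17, Syt4, Syt12, Syt13, Snap25 and Doc2b. The replicate numbers, shared by both genotypes, did not pair the libraries. Alternatives were other pseudocounts (0.1 and 1), filters (none and 2 RPKM), median centring, quantile normalization, each library's own total, the replicate block, no trend, library weights, the authors' table and leaving out each library; leaving out WT replicates 2, 5 and 6 together was added after the data were seen. Python 3.11.15 with pandas 2.3.3 was used for the tables. In the CA1 marker list 1 gene is not reported here, and the list's counts leave it out.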

Additional observations from a re-analysis of the deposited data

Results flagged for a closer look

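In 3 of 96 groups of 9 libraries (48 genes in each genotype), 1 library stood apart from the other 8 by the ratio of its gap to the range; chance alone gives 4.8 such groups. Syt16 was at 30.5 RPKM in WT replicate 2, against 25.1 in the next library; without it the log2 fold change was 0.21 (limma adjusted p 0.00811). Snap29 was at 12.2 RPKM in WT replicate 1, against 9.61 in the next; without it the log2 fold change was 0.31 (limma adjusted p 2.48e-05). Rab3b was at 18.9 RPKM in WT replicate 2, against 12.7 in the next; without it the log2 fold change was 0.08 (limma adjusted p 0.526).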

How the results depend on the processing

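Of the 48 genes, 32 held their direction and call in every alternative that gave a value for them (30, or 29 for Cplx3 and Syt6, which the filter at 2 RPKM removes), among them 28 of the 30 called genes; the 2 others are Cplx1 and Vamp2. With each library's own total, the median of all genes moved to 0.07, and the share of member calls that were higher from 16.7% to 23.3%, while that share over all genes moved from 51.4% to 66.9%. Signs turned there for Rab3b (0.046), Rims3 (0.032), Syn1 (0.015), Syn3 (0.0020), Syt11 (0.0046), Syt13 (0.0054) and Syt5 (0.071), and under quantile normalization for Syn1 (0.011), Syn3 (0.00022), Syt11 (0.0043), Syt5 (0.042) and Vamp2 (0.042). Library weights turned Syt9 (0.014) and median centring Syt5 (0.00059). Leaving out single libraries gave ranges of -0.081 to 0.077 for Rab3b, -0.10 to 0.054 for Rims3, -0.014 to 0.037 for Syp, -0.039 to 0.043 for Syt5 and -0.28 to 0.029 for Syt9, and 5 to 8 members higher. With WT replicates 2, 5 and 6 left out together, added after the data were seen, 8 members were higher, Slc17a6 and Syt9 among them, and Rab3b (0.073), Rims3 (0.12), Syt5 (0.0082) and Syt9 (0.34) turned; these libraries were chosen partly on Syt9 and Slc17a6. Vesicle membrane genes higher in R6/1 numbered 12 under quantile normalization and 13 with own totals, endocytosis genes 11 and 12. Further release and active zone genes lower in R6/1 numbered 21 and 16 in these settings, postsynaptic genes 18 and 16. The cause was not tested. The replicate numbers did not pair the libraries (correlations -0.05 to 0.24, above 0.1 in 3 of 9 pairs, and 2 WT libraries closest to their own number); the replicate block added Syt16 (0.16) and Stxbp5 (-0.10) to the calls. In simulation the test recovered 36% of changes of 0.3 over all genes, in a setting where few genes changed and the spread was set beforehand. That rate need not hold for these data. Among the members, the smallest change that passed was that of Vamp2 (-0.12, SE 0.04).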
